A study of Mus musculus with 6 samples.

Results

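Intermediate filament genes were followed in the mouse melanoma line D4M-3A with and without a knockout of Nfkbiz. The 10 genes were taken by name from the 43043 genes listed for each sample: Nefl, Nefm, Nefh, Ina, Prph, Vim, Nes, Des, Gfap and Synm. The set was selected on measured values, since Nefl was among the largest increases of the same comparison and the other genes were added as its family, so the knockout values of these genes describe them and are given without p-values. All samples were D4M-3A cells transduced with a lentiviral CRISPR-Cas9 construct and selected with puromycin. The 3 Ctrl samples carried the empty construct, and the 3 Nfkbiz KO samples carried a construct against Nfkbiz, which encodes IκBζ, a nuclear cofactor of NF-κB. The study describes 3 independent experiments per condition, and whether the knockout cells were 1 clone is not stated in the sources used here.

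Intermediate filaments are rope-like polymers that give cells mechanical strength, and each cell type builds them from its own choice of subunits. Neurons use the neurofilament triplet of light, medium and heavy chains (Nefl, Nefm and Nefh) together with α-internexin (Ina) and peripherin (Prph). Mesenchymal cells use vimentin (Vim), which can assemble with nestin (Nes) and synemin (Synm), muscle uses desmin (Des), and astrocytes use glial fibrillary acidic protein (Gfap). Vimentin is the usual filament of melanoma cells, and nestin is a protein of neural progenitors that many melanomas also make.

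Nfkbiz itself had 69.1, 75.2 and 63.4 TPM (a transcript level corrected for length and depth) in Ctrl replicates 1, 2 and 3, and 34.8, 34.7 and 35.1 TPM in Nfkbiz KO replicates 1, 2 and 3. The groups did not overlap, and the log2 fold change was -0.98 (SE 0.056, adjusted p = 6e-08 with edgeR's quasi-likelihood test and Benjamini-Hochberg adjustment over 14419 genes). Each sample had from 32219900 to 44927203 gene reads, so that a count of 0 allows up to 0.0668 to 0.0931 CPM (read counts scaled to equal depth), counting error only. The Ctrl samples differed more among themselves than the knockout samples did, the chi-square between pairs, per degree of freedom, being 27.8 to 71.4 against 3.53 to 6.24, and the highest value lay between Ctrl replicates 1 and 3. Most markers of pigment cells were at trace levels: 9 of 10 melanocyte markers stayed under 1 TPM in every sample, and Tyr and Sox10 had 0 reads. Summed over the 10 melanocyte markers, levels ran from 1.13 to 1.74 TPM in Ctrl samples and from 1.32 to 1.68 TPM in the knockout.

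The filament RNA of these cells was almost entirely vimentin. The levels of the 10 genes summed to 2826 ± 74.0 TPM in Ctrl samples and 3947 ± 40.0 TPM in the knockout (SD, n = 3 each). Vim made up 91.1% ± 0.929 of that sum in Ctrl and 93.6% ± 0.099 in Nfkbiz KO. The share of Nes was 8.79% in Ctrl and 5.75% in Nfkbiz KO, and that of Nefl 0.0922% and 0.56%. In TPM, Vim was above Nes and Nes above Nefl in every sample, with gaps wider than the spread over samples. Nefl in turn was above each of the remaining genes. In Ctrl the levels of Nefm, Synm, Ina and Des overlapped, and in Ctrl replicate 2 Ina (0.4 TPM) and Des (0.345 TPM) were above Nefm (0.336 TPM). In Nfkbiz KO every Nefm value was above those of Synm and the remaining genes. Ina, Des, Nefh, Gfap and Prph stayed at or under 0.4 TPM in all samples.

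Of the 10 genes, 5 had enough reads for the test across all genes (Nefl, Nefm, Vim, Nes and Synm), and 5 did not (Nefh, Ina, Prph, Des and Gfap). Of the 5 tested, 3 were higher and 1 was lower in Nfkbiz KO at an adjusted p of 0.05 or less, where 36.6% of all genes tested passed, 18.2% higher and 18.4% lower. Without Nfkbiz KO replicate 1, or on log2(TPM + 1) or log2(TPM + 0.1) with limma, the decrease of Nes no longer passed. Of the 5, 4 had groups that did not overlap in CPM, a pattern shown by 48.4% of all genes tested. The thresholds of the study's methods (over 2-fold, adjusted p at most 0.05 and a difference above 4, taken here as mean TPM) were passed by 1 of them, Nefl, and by 1.79% of all genes tested, 0.756% higher and 1.03% lower. Because the set was built around this comparison, nothing is read from these counts.

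**Figure D1:**
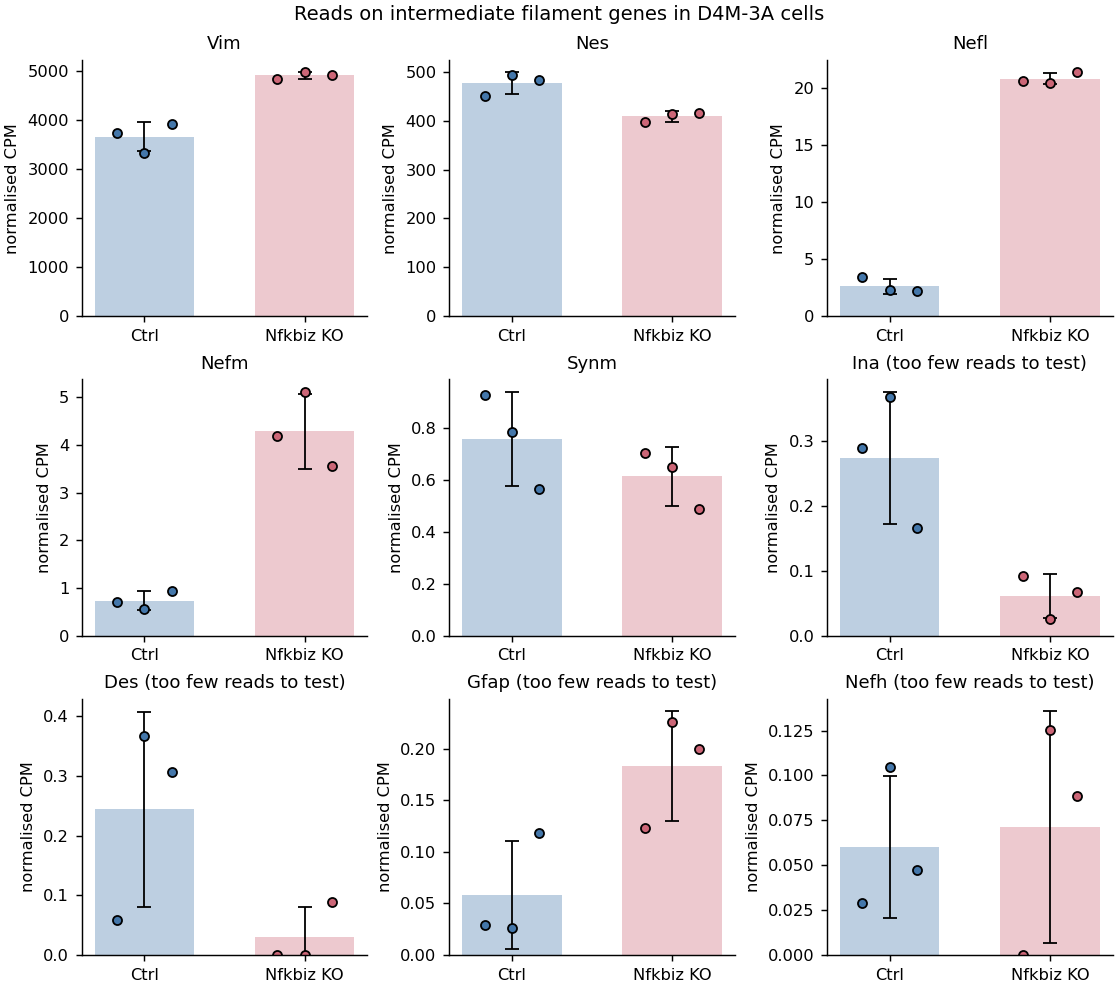
Normalised read counts (CPM, vertical axes, each gene on its own scale from 0) on 9 of the 10 genes in the 3 Ctrl and 3 Nfkbiz KO samples. Points are samples, bars are group means and error bars are SD. Nefl and Nefm points of Nfkbiz KO lie far above those of Ctrl, Vim points lie above and Nes points below, and Synm points overlap. Prph had 0 reads and is not drawn.

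Nefl encodes the neurofilament light chain, the core subunit on which the longer chains depend for assembly. It had 3.36, 2.36 and 2.10 TPM in Ctrl replicates 1, 2 and 3 and 22.1, 21.7 and 22.5 TPM in Nfkbiz KO replicates 1, 2 and 3. Every knockout sample lay far above every control sample, and the knockout samples lay close together (22.1 ± 0.414 TPM) around a control level of 2.61 ± 0.667 TPM (SD, n = 3 each). The log2 fold change from read counts was 2.996 (SE 0.132), or 7.98-fold. It was the 13th rise from the top, and 0.319% of the genes tested had a larger change in either direction. Ranked by TPM among all listed genes, Nefl stood between 10336 and 10914 in the Ctrl samples and between 5879 and 6076 in the Nfkbiz KO samples.

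The level of Nefl rested in part on reads that also mapped elsewhere. Ctrl replicates 1, 2 and 3 had 117, 87 and 94 reads on the gene, of which 58, 61 and 68 were unique. Nfkbiz KO replicates 1, 2 and 3 had 671, 816 and 963 reads, of which 436, 537 and 646 were unique. Unique and shared reads were both higher in every knockout sample. The unique share was 49.6%, 70.1% and 72.3% in Ctrl and 65.0%, 65.8% and 67.1% in Nfkbiz KO, so Ctrl replicate 1, the highest control, also had the lowest unique share. From unique reads alone the log2 fold change of Nefl was 3.07.

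**Figure D2:**
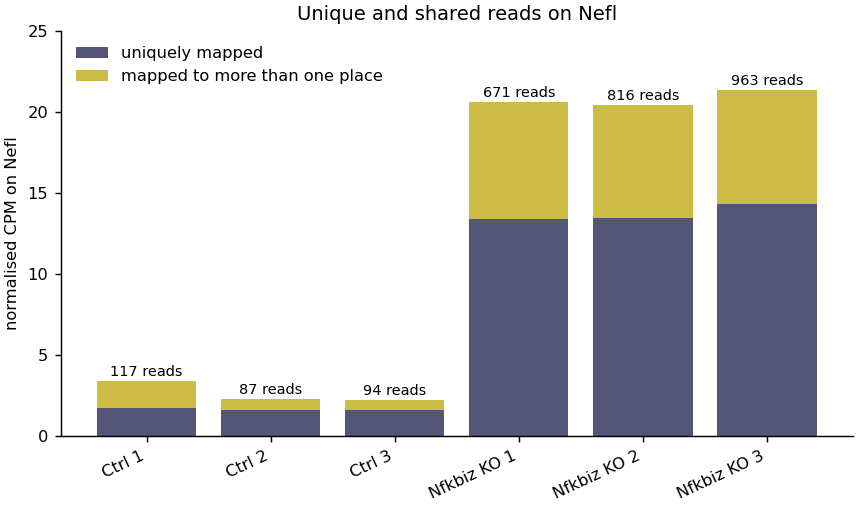
Normalised CPM on Nefl in each sample (vertical axis), split into uniquely mapped reads and reads that mapped to more than one place, with the read count above each bar. Both parts are larger in the 3 Nfkbiz KO samples (671, 816 and 963 reads) than in the 3 Ctrl samples (117, 87 and 94 reads).

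Nefm, the medium chain, which carries a long tail that projects from the filament, was lower in level than Nefl in every sample. It had 0.403, 0.336 and 0.524 TPM in Ctrl replicates 1, 2 and 3, and 2.60, 3.17 and 2.19 TPM in Nfkbiz KO replicates 1, 2 and 3. Again no samples of the groups overlapped, with means of 0.421 ± 0.0949 and 2.65 ± 0.494 TPM (SD, n = 3 each). These levels came from 24, 21 and 40 reads in Ctrl and 136, 204 and 160 reads in Nfkbiz KO, of which 98.8% were unique. The log2 fold change of Nefm was 2.53 (SE 0.23), or 5.79-fold, and 1.36 on the log2(TPM + 1) scale, which understates changes of low genes.

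Nefl and Nefm lie side by side on chromosome 14. In the GENCODE annotation of GRCm39, Nefl runs from 68321268 to 68326544 on the plus strand and Nefm from 68320039 to 68362305 on the minus strand, so that the longest model of Nefm spans Nefl and shares 1152 exonic bases with it on the opposite strand. The authors counted reads of both strands, so reads of one gene and of the other cannot be told apart within that stretch, if their annotation holds this model. The ratio of Nefl to Nefm in TPM was 8.34, 7.01 and 4.02 in Ctrl and 8.50, 6.83 and 10.3 in Nfkbiz KO, which overlap.

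The heavy chain did not reach the level needed for the test. Nefh, which completes the triplet in mature axons, had 1, 4 and 2 reads in Ctrl and 0, 5 and 4 reads in Nfkbiz KO. The groups overlapped, and the ratio of summed reads, corrected for depth, was 1.28 with a 95% interval of 0.423 to 4.03 (exact, counting error only). In TPM, which counts exon reads only, Nefh went the other way and the groups did not overlap, with 0.0243, 0.0696 and 0.0379 TPM in Ctrl and 0, 0 and 0.0198 TPM in Nfkbiz KO. Ina, which joins the triplet in central neurons, had 10, 14 and 7 reads in Ctrl and 3, 1 and 3 reads in Nfkbiz KO. All 3 knockout samples were below all 3 controls, the opposite direction to Nefl, with a ratio of 0.224 (0.0833 to 0.519). Nefh shares 861 exonic bases with Ap1b1 and Ina shares 526 with Nt5c2, each on the opposite strand. Prph, the subunit of peripheral neurons, had 0 reads in all 6 samples.

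Summed over Nefl, Nefm, Nefh and Ina, neurofilament RNA amounted to 3.35 ± 0.638 TPM in Ctrl cells and 24.8 ± 0.0558 TPM in the knockout (SD, n = 3 each). Most of it was Nefl in each sample. Vim outnumbered Nefl 1026-fold in Ctrl and 167-fold in Nfkbiz KO, as the mean of the ratios in TPM.

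Vim was one of the most abundant RNAs of these cells. Its level was 2624, 2467 and 2632 TPM in Ctrl replicates 1, 2 and 3, and 3677, 3739 and 3670 TPM in Nfkbiz KO replicates 1, 2 and 3. The lowest knockout sample was above the highest control, and the rank of Vim among all genes moved from between 39 and 43 to between 20 and 21. From read counts the log2 fold change was 0.42 (SE 0.069), or 1.34-fold, whereas on the log2(TPM + 1) scale it was 0.52. A change larger than that of Vim, in either direction, was found for 22.8% of the genes tested. All reads on Vim were unique, and the gene lies at chr2:13578738-13587639 on the plus strand.

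Nes, whose protein is incorporated into vimentin filaments, was lower by a small margin. It had 233, 270 and 240 TPM in Ctrl replicates 1, 2 and 3, and 222, 229 and 230 TPM in Nfkbiz KO replicates 1, 2 and 3. The groups did not overlap, but the gap between the highest knockout and the lowest control was small beside the spread of the controls (248 ± 19.5 TPM against 227 ± 4.39 TPM, SD, n = 3 each). The log2 fold change was -0.22 (SE 0.056) from read counts and -0.12 on either TPM scale, and 45% of the genes tested had a larger change. The ratio of Vim to Nes in TPM was 10.4 ± 1.14 in Ctrl samples and 16.3 ± 0.293 in the knockout (SD, n = 3 each), without overlap. Nes lies at chr3:87878385-87887758 on the plus strand.

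Synm, a large subunit that assembles only with others and links them to membrane anchors, was present at a trace. It had 0.355, 0.327 and 0.219 TPM in Ctrl and 0.280, 0.295 and 0.210 TPM in Nfkbiz KO, from 22 to 32 reads a sample. The groups overlapped, with a log2 fold change of -0.31 (SE 0.31), an error as large as the difference. Synm lies at chr7:67379908-67409527 on the minus strand and shares 84 exonic bases with Ttc23 on the other strand, which had a log2 fold change of -0.39 (adjusted p = 0.001 with edgeR).

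The muscle and glial subunits were near the limit of detection. Des had 2, 14 and 13 reads in Ctrl and 0, 0 and 4 reads in Nfkbiz KO, so Ctrl replicate 1 fell within the range of the knockout samples. The ratio of summed reads of Des was 0.137 (95% interval 0.035 to 0.39, counting error only). Gfap had 1, 1 and 5 reads in Ctrl and 4, 9 and 9 reads in Nfkbiz KO, with a ratio of 3.12 (1.29 to 8.64). The TPM of Gfap, which counts exon reads only, was 0 in 4 of the 6 samples. Des lies at chr1:75320511-75345223, Gfap at chr11:102778159-102791738, Nefh at chr11:4888740-4898130, Ina at chr19:47003069-47013770 and Prph at chr15:98952872-98956862.

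Promoter sequences in RefSeq's table (build GRCm38.p6) were at hand for 7 of the 10 genes: Vim, Nes, Des, Prph, Ina, Gfap and Synm. Each 250-base stretch before the start site was found at exactly 1 place in GRCm39, and both strands were searched for 4 motifs: the NF-κB site known as the κB motif (10 bases), AP-1 (TGANTCA), STAT (TTCNNNGAA) and the TATA box (TATAAA). The κB motif is shown because IκBζ acts through NF-κB. Among all 32851 promoters of the table, 5% held the κB motif, 6.75% the AP-1, 7.02% the STAT and 12.4% the TATA motif. Matches were found in Vim, Des and Prph and are printed with their flanks, capitals marking the match:
Vim, chr2:13578889-13578918, plus strand, κB motif on the opposite strand: gtgatcaccaGGAAAGCCCCtgaaaggcct
Vim, chr2:13578971-13579000, plus strand, κB motif on both strands: aaggctcgagGGGAGCTCCCtcccccaccc
Vim, chr2:13579080-13579105, plus strand, TATA box: ctaacagtgtTATAAAagcagcgccc
Des, chr1:75336730-75336759, plus strand, κB motif: ggggccggccGGGGGTCTCCtgtcagctcc
Prph, chr15:98953014-98953039, plus strand, TATA box: accgcagggcTATAAAgccgccccgc
Positions are counted from the start site of RefSeq's table, and the stretches printed for Vim, Des and Prph lie inside the spans given above for these genes, since the GENCODE spans begin farther upstream. The κB matches of Vim begin 223 and 141 bases before the start site and its TATA box 32 bases before it. That of Des begins 196 bases before the start, and the TATA box of Prph 31 bases before it. Vim, the most abundant of these genes, Des, at a trace, and Prph, with 0 reads, thus each held a match. None of the 4 motifs matched in Nes, Ina, Gfap or Synm. The stretch before Nes, the second most abundant gene, is printed up to its first annotated exon as one without a match:
Nes, chr3:87878150-87878384, plus strand: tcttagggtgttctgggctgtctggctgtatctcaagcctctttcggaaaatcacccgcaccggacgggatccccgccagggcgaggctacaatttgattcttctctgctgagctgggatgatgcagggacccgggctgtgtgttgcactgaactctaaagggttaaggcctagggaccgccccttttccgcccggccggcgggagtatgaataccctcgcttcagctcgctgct
A match is a run of letters and not a measured binding site.

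Each of the 5 tested genes kept its direction under every alternative, but the size depended on the scale. Over 13 alternatives the log2 fold change of Nefl stayed between 2.69 and 3.21, and that of Vim between 0.37 and 0.52. Nefm ranged from 1.36 to 2.78, its lowest value being the one on the log2(TPM + 1) scale. Nes stayed between -0.26 and -0.12, its smallest values being those on the TPM scales, and Synm between -0.48 and -0.04. Omitting 1 sample at a time, Nefl ranged from 2.89 to 3.21 and Nefm from 2.37 to 2.78. Without Ctrl replicate 1, the sample with the lowest unique share on Nefl, the values were 3.21 for Nefl, 2.50 for Nefm, 0.44 for Vim, -0.26 for Nes and -0.14 for Synm.

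**Figure D3:**
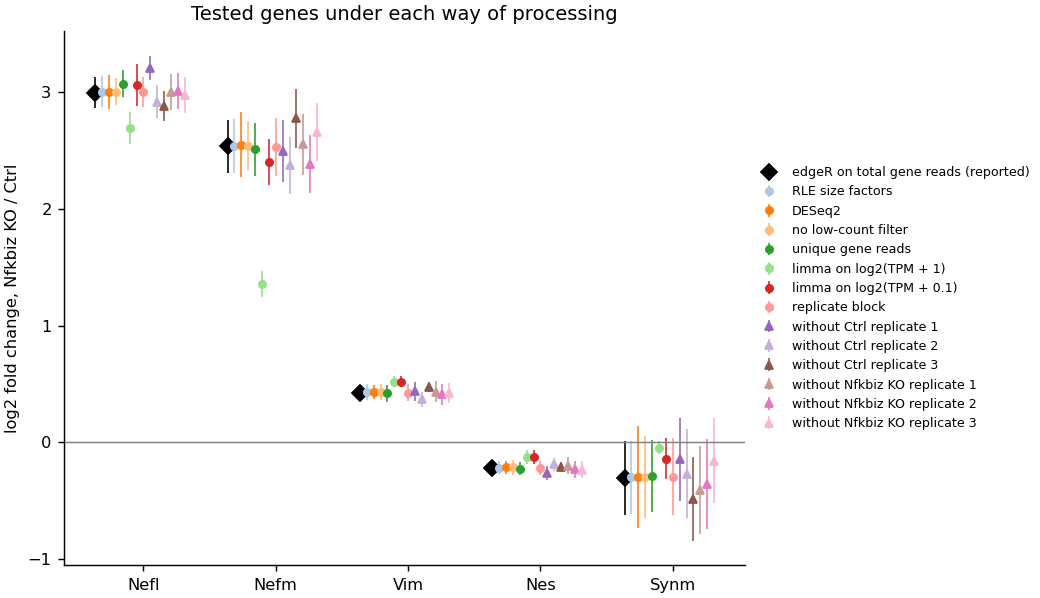
Log2 fold change of Nfkbiz KO over Ctrl (vertical axis) of the 5 tested genes under the reported setting (diamond) and 13 alternatives, with bars of 1 standard error. Nefl (2.69 to 3.21), Nefm (1.36 to 2.78) and Vim (0.37 to 0.52) lie above 0 throughout, and Nes (-0.26 to -0.12) and Synm (-0.48 to -0.04) below it.

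From read counts, the genes around Nefl and Nefm moved in both directions, by less than either of them. Within 2 Mb on either side, 29 other genes were tested, of which 4 were higher and 6 lower at an adjusted p of 0.05 or less (34.5%, against 36.6% of all genes tested). Their log2 fold changes ran from -1.31 to 1.27, with a median of -0.12. Both ends of that range came from genes listed at 0 TPM in all samples, which did not pass. Among the neighbours that passed, the values ran from -1.18 to 0.44. On one side, Dock5, a guanine nucleotide exchange factor for Rac, rose by 0.31 (SE 0.079, adjusted p = 0.0084 with edgeR) but did not pass with limma on either TPM scale. Next to it, Gnrh1, the gonadotropin-releasing hormone, and Kctd9 had values of -0.42 and 0.11 that did not pass (adjusted p = 0.29 and 0.25). At low levels, Gnrh1 fell from 0.745 to 0.0934 TPM, and it passed with limma on either TPM scale. Over the 13 alternatives the value of Gnrh1 ranged from -2.37 to -0.30. On the other side, Stc1, the secreted hormone stanniocalcin, fell from 8.36 to 4.09 TPM (log2 fold change -1.13, adjusted p = 2.59e-05). The mitochondrial iron carrier Slc25a37 rose by 0.29 (adjusted p = 0.0016), and Gm41192, listed at 0 TPM, had a value of -1.31 that did not pass (adjusted p = 0.072).

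**Figure D4:**
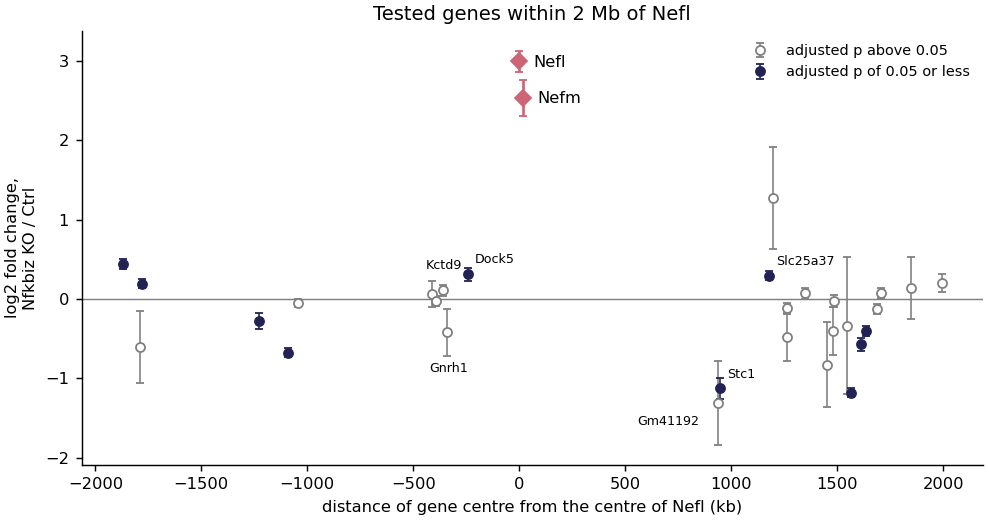
Log2 fold change of Nfkbiz KO over Ctrl (vertical axis, bars of 1 standard error) of Nefl, Nefm and the 29 other tested genes within 2 Mb, by distance of the gene's centre from that of Nefl in kb. Filled points passed an adjusted p of 0.05. The neighbours lie between -1.31 and 1.27, below Nefm (2.53) and Nefl (2.996). Both ends of that range are genes listed at 0 TPM that did not pass.

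The genes whose levels followed Nefl most closely over the 6 samples were Trafd1, Zfp367, Pkn3, Lipg and Itgbl1, with Pearson correlations of log2 CPM of 0.9996, 0.9996, 0.9996, 0.9993 and 0.9992. The samples form the Ctrl and Nfkbiz KO groups, so such a value mostly records a difference between the groups, and 1862 genes reached 0.9. The changes of these 5 genes were smaller than that of Nefl, with log2 fold changes of 0.63, 0.56, 0.55, 0.61 and 1.90. Nefm had a correlation of 0.97 with Nefl, and 745 genes had a higher one. For Vim the value was 0.95, for Nes -0.96 and for Synm -0.42.

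Among the other subunit genes of the family, few were expressed. Of 39 listed keratins, lamins, lens filament genes and related genes, 9 were tested, of which 3 were higher and 1 lower at an adjusted p of 0.05 or less (44.4%, against 36.6% of all genes tested). Their median log2 fold change was 0.01, against -0.02 over all genes tested. The keratin Krt16, made by stressed epithelium, rose from 0.373 to 1.79 TPM (log2 fold change 2.34, SE 0.39, adjusted p = 0.00052 with edgeR), and Krt80 fell from 1.07 to 0.348 TPM (-1.72, SE 0.26, adjusted p = 0.00022). Both are at low levels, and over the 13 alternatives Krt16 ranged from 1.01 to 2.56 and Krt80 from -1.91 to -0.62. Iffo2 rose by 0.24 (adjusted p = 0.0038), and Sync, the desmin-binding syncoilin, rose by 0.63 (adjusted p = 0.027) but did not pass under 7 of the 13 alternatives. The nuclear lamins, which line the inside of the nuclear envelope, did not pass, with values of 0.03 for Lmna, -0.05 for Lmnb1 and -0.14 for Lmnb2. Of these genes only Lmna exceeded Nes in level, at a mean of 675 TPM for Ctrl and 739 TPM for Nfkbiz KO.

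Linker proteins tie filaments to cell junctions, membranes and other fibres. Of 21 listed, 15 were tested, of which 5 were higher and 5 lower (66.7%, against 36.6% of all genes tested), with a median of 0.12 against -0.02. Dmd, dystrophin, rose from 0.193 to 0.759 TPM (log2 fold change 1.80, adjusted p = 6.04e-06 with edgeR), at a low level, and ranged from 0.56 to 1.97 over the alternatives. The desmosomal plakophilin Pkp1 rose by 0.37 (adjusted p = 0.0044), and Dst, dystonin, rose by 0.31 (adjusted p = 0.046) but did not pass under 7 of 13 alternatives. Pkp2, another plakophilin, fell by 1.30 on the log2 scale (adjusted p = 0.00014). Jup, plakoglobin, fell by 1.23 and Ppl, periplakin, fell by 0.69 (adjusted p = 1.76e-05 and 0.0027). Only 6 of the 15 passed with limma on either TPM scale.

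For genes that modify, degrade or chaperone filaments, 17 of 19 were tested, with 4 higher and 4 lower (47.1%, against 36.6% of all genes tested) and a median of 0.03. Padi2, an enzyme that citrullinates vimentin, rose from 0.25 to 1.24 TPM (log2 fold change 1.85, adjusted p = 8.44e-05 with edgeR), and ranged from 0.84 to 1.95 over the alternatives. The kinase Rock2, which phosphorylates vimentin, rose by 0.33 and the small heat shock protein Cryab, a chaperone of desmin and vimentin, by 0.30 (adjusted p = 0.0037 and 0.0082). Casp6, a caspase that cleaves lamins and vimentin, fell from 18.5 to 9.96 TPM (log2 fold change -1.01, adjusted p = 8.88e-07) and narrowly passed the study's thresholds. Its value ranged from -1.08 to -0.83 over the alternatives, so under some of them the fall was less than 2-fold. Pak1 fell by 0.35 and the calpain Capn1, a protease of neurofilaments, by 0.29 (adjusted p = 0.00044 and 0.00079).

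Of 25 axonal and neuronal genes, 15 were tested, with 5 higher and 4 lower (60%, against 36.6% of all genes tested) and a median of 0.11. The list shares 1 gene with the linkers, Dst, which is counted as higher in both. Stmn2, an axonal microtubule regulator, rose from 0.0829 to 0.695 TPM (log2 fold change 2.88, SE 0.37, adjusted p = 5.95e-05 with edgeR), a low level in both groups. Over the 13 alternatives the value of Stmn2 ranged from 0.65 to 3.22. Uchl1, a neuronal ubiquitin hydrolase, rose by 0.69 from 5.80 to 10.1 TPM, and the neuronal tubulin Tubb3 by 0.42 from 75.4 to 108 TPM (adjusted p = 0.0026 and 0.00053). The neural adhesion molecules Nrcam and Ncam1 fell by 1.12 and 0.76 (adjusted p = 5.54e-05 and 2.22e-07). Map2, a dendritic microtubule protein, fell by 0.51 (adjusted p = 0.00046) but did not pass with limma on either TPM scale.

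Of 10 neuron markers, 9 stayed under 1 TPM in all samples and Chga had 0 reads. Their summed level was 5.71 to 6.04 TPM in Ctrl against 6.09 to 6.67 TPM in Nfkbiz KO. Most of that level came from Syn1, which did not pass (log2 fold change -0.01, adjusted p = 0.92 with edgeR). Of the 3 neuron markers tested, only Stmn2, already described among the axonal genes, passed. The 10 neural crest and Schwann cell markers summed to 70.2 to 75.9 TPM in Ctrl against 95.8 to 101 TPM in Nfkbiz KO, most of it from Tfap2b, which rose (log2 fold change 0.37, adjusted p = 0.0002 with edgeR), and from Tfap2a, which did not pass (0.11, adjusted p = 0.35). All 8 muscle markers were under 1 TPM, with Myod1 and Myog at 0 reads. The only muscle marker tested, Ttn, rose at a trace level (log2 fold change 0.92, adjusted p = 0.0031 with edgeR). The epithelial markers summed to at most 0.154 TPM. Fibroblast markers, mainly collagens, summed to 966 to 1070 TPM in Ctrl against 799 to 843 TPM in Nfkbiz KO. Of the 6 markers, 5 were tested and 4 passed as lower, against 18.4% of all genes tested. The remaining tested marker, Pdgfra, did not pass (log2 fold change 0.0019, adjusted p = 0.98 with edgeR). Endothelial markers summed to 0.556 to 0.833 TPM in Ctrl and 1.34 to 1.86 TPM in Nfkbiz KO. Most of that came from Cdh5, which rose (log2 fold change 1.34, adjusted p = 0.0023 with edgeR), while Pecam1 did not pass (-0.16, adjusted p = 0.88). Leukocyte markers summed to 1.98 to 2.65 TPM in Ctrl and 1.95 to 4.17 TPM in Nfkbiz KO. The part of the fibroblast, neural crest, neuron and endothelial markers, whose sums did not overlap between the groups, in the values of the filament genes was not tested. In bulk RNA, fewer cells that express a gene and less RNA per cell cannot be told apart.

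Of 23 microtubule and actin genes, 22 were tested, with 2 higher, 12 lower and 8 that did not pass. The share that passed was 63.6%, against 36.6% of all genes tested, of which 18.2% were higher and 18.4% lower, and the median was -0.18 against -0.02. The tubulin gene Tubb2b fell from 58.4 to 20.2 TPM (log2 fold change -1.63, adjusted p = 3.9e-09 with edgeR) and passed the study's thresholds. Tuba1a fell by 0.80 and Tubb2a by 0.60 (adjusted p = 2.53e-06 and 5.82e-05). Only 57.4% of the reads of Tuba1a, 79.8% of those of Tubb2a and 84.6% of those of Tubb2b were unique, so reads may be split among near-identical tubulins. Actn4, an actin cross-linker, rose by 0.22 (adjusted p = 0.0073), and Myh9, non-muscle myosin, by 0.18 (adjusted p = 0.048), though Myh9 did not pass under 6 of 13 alternatives. The count of 14 depended on the samples and the scale: 9 genes passed without Nfkbiz KO replicate 1 and without Nfkbiz KO replicate 3, 8 with limma on log2(TPM + 1) and 7 on log2(TPM + 0.1).

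**Figure D5:**
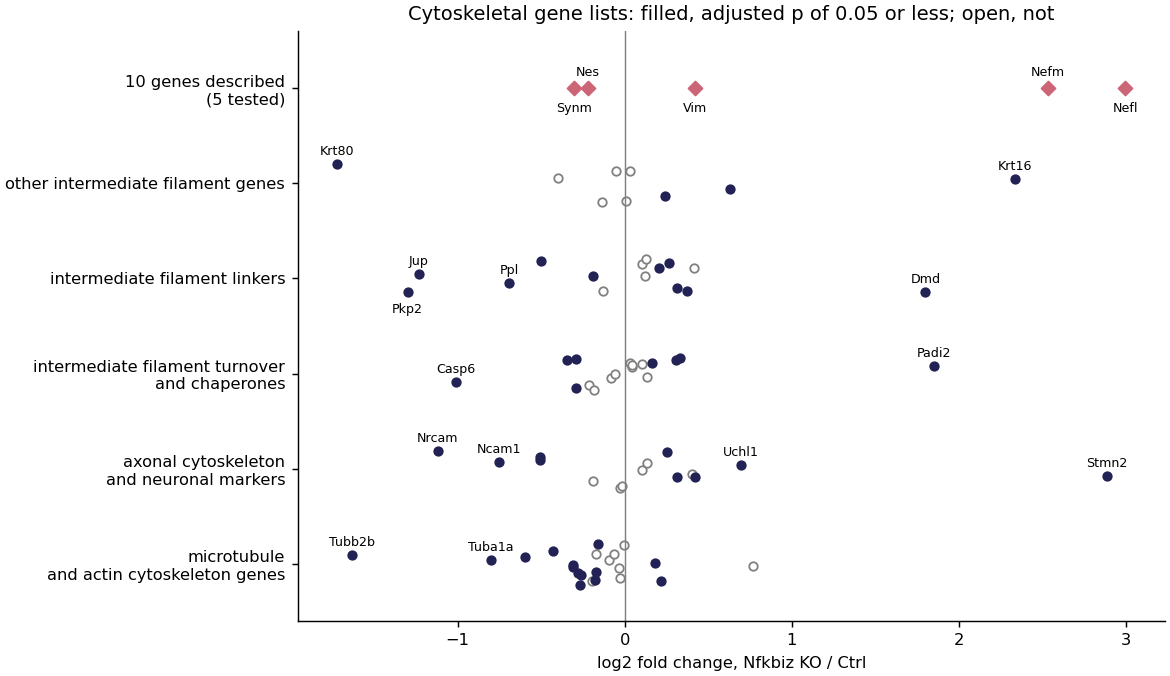
Log2 fold change of Nfkbiz KO over Ctrl (horizontal axis) of the 5 tested filament genes and of the tested genes of the 5 other lists (vertical axis, points spread to avoid overlap). Filled points passed an adjusted p of 0.05 and open points did not. The medians of the lists lie between -0.18 and 0.12, and Nefl at 2.996 and Stmn2 at 2.88 lie farthest to the right.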

How the data were processed

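RNA of 3 Ctrl and 3 Nfkbiz KO samples of D4M-3A cells was sequenced as paired reads. Mapping was done by the authors in CLC Genomics Workbench at default settings, on both strands. They deposited 1 table per sample with raw read counts per gene (total and unique gene reads) and exon-based TPM and RPKM values, with a decimal comma that was converted. The study's methods name GRCm39 as the reference and the submitters' processing notes GRCm38, and the tables hold no coordinates. Positions were taken by symbol from GENCODE vM39 (GRCm39), which matched all 10 members and 96.2% of the genes tested. RPKM was not used.

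Total gene reads were tested with edgeR 4.0.16 in R 4.3.3 (TMM, factors 0.978 to 1.011; filterByExpr with minimum count 10 and minimum total 15; quasi-likelihood test; Benjamini-Hochberg adjustment over 14419 genes). The standard error is the log2 fold change divided by the square root of F. Depth was 32219900 to 44927203 gene reads per sample, 96.5% to 96.9% unique, and the common dispersion 0.00518. No samples were duplicates. With simulated counts 44 of 50 genes changed 1.5-fold and 49 of 50 changed 2-fold were recovered. The simulation gave all genes of both groups the common dispersion and changed only genes above a minimum of expected reads. It therefore does not show recovery at the wider spread of the Ctrl samples or for genes with few reads. The exact permutation test cannot go below p = 0.1 with 3 samples against 3. Ratios of genes not tested use exact binomial intervals at 95%. P-values measure the spread between these samples.

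The members and gene lists were chosen with earlier results of these data known. Named genes are the 10 members, Nfkbiz, the 3 largest changes in each direction among the genes of each list that passed, the 5 genes most correlated with Nefl, and up to 3 tested neighbours on each side. Genes outside this rule (Lmna, Lmnb1, Lmnb2, overlapping genes and cell type markers other than Stmn2) were named after their values were seen. Alternatives were RLE factors, DESeq2 1.42.0, no filter, unique reads, limma 3.58.1 on log2(TPM + 1) and log2(TPM + 0.1), a replicate block and each sample left out in turn. Figures were drawn with matplotlib 3.10.9 in Python 3.11.15.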

Additional observations from a re-analysis of the deposited data

How the results depend on the processing

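No value of the 5 tested filament genes or of Nfkbiz changed sign under any of the 13 alternatives. The count of all genes passing an adjusted p of 0.05 was 5274 (2627 higher, 2647 lower) and lay between 3798 and 5533 with 1 sample left out. With limma it was 3004 higher and 1327 lower on log2(TPM + 1) and 2947 higher and 1279 lower on log2(TPM + 0.1), where the median log2 fold change of all genes was 0.06 and 0.08 against -0.02. Of the 258 genes passing the study's thresholds (109 higher, 149 lower), the count was 854 without the difference cut-off, 248 to 276 with 1 sample left out, and split into 127 higher and 97 lower on log2(TPM + 1) and 148 higher and 107 lower on log2(TPM + 0.1). Linkers gave 6 on either TPM scale against 10, and microtubule and actin genes 8 and 7 against 14, or 9 to 16 with 1 sample left out. The cause was not tested. No pairing by replicate number was seen, the deviations of same-numbered samples having correlations of 0.037, -0.023 and 0.026. Such values cannot exclude a pairing, because the knockout samples differed little among themselves. With the replicate block 5087 genes passed, of which 4945 were among the 5274, and 257 passed the study's thresholds. Depth limits Nefh, Ina, Des and Gfap, at 0 to 14 reads a sample.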
